A study of Mus musculus with 16 samples.

Results

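The comparison described here set mature adipocytes of mice exposed to early life stress against those of undisturbed control mice, all fed a high-fat diet. It used 6 of the 16 libraries of the series, 3 control and 3 stress, chosen by their labels. All of them came from the gonadal white fat of female C57BL/6 mice, an inbred laboratory strain. The stress mice had been taken from the dam each day from postnatal day 2 to 16 and weaned on day 17, and the control mice were left with the dam until weaning on day 21. The labels state neither the age at collection nor how many mice stand behind a library. The p-values therefore measure only how far these libraries vary, part of which may be technical. The fractions were obtained by collagenase digestion, spinning, filtering and a magnetic sort. Although the series title speaks of single cells, each library is 1 bulk profile of total RNA. The 8 high-fat preadipocyte libraries (4 control and 4 stress) were used to check the fractions against markers, to locate the epithelial genes described below and to test whether a stress effect differed between fractions.

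White adipocytes store triglyceride in 1 large lipid droplet and release fatty acids on adrenergic or other hormonal signals, while secreting hormones such as leptin and adiponectin. Under cold or adrenergic drive, some white depots also gain beige adipocytes, which burn fuel as heat through the uncoupling protein UCP1. Gonadal fat of mice is generally among the depots that do this least. Beta-adrenergic receptors act through cyclic AMP, and the factors that respond to it bind the palindrome TGACGTCA or its shorter form TGACG.

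No gene passed the test. Of 14485 genes tested with edgeR's quasi-likelihood test, 0 had an adjusted p under 0.05 (0% of genes), and the smallest adjusted p was 0.9996. At an unadjusted p under 0.05 there were 417 genes (2.88%), 139 of them higher in the stress libraries (0.96%) and 278 lower (1.92%). The 3 stress libraries lay wholly above the 3 control libraries for 518 genes (3.58%) and wholly below them for 478 (3.3%). Separation together with a 2-fold difference and a mean of at least 5 CPM was met by 44 genes on the higher side and 86 on the lower side; a 2-fold difference alone was met by 3.35% and 4.91% of genes. CPM is the usual depth-scaled count, here with TMM factors over the 6 libraries. Everything below therefore gives values of genes that were not called, and an interval is ± 1 standard error of the log2 fold change, stress minus control, derived from the F statistic. DESeq2, run as an alternative, called 16 genes (0.0625%), and edgeR without a filter on low counts called 51 (0.199%).

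The control libraries differed among themselves more than the stress libraries did. Library totals ran from 14182130 to 21995111 counts in controls and from 19265609 to 21952511 under stress. When every library was thinned to the smallest total, control libraries 1, 2 and 3 held 17785, 20163 and 15344 detected genes, and stress libraries 1, 2 and 3 held 19723, 18097 and 20425. Complexity was also read from the ratio of genes at 1 to 5 counts to genes at 6 to 15 counts, which was 1.15, 1.84 and 0.637 in controls and 2.21, 1.55 and 2.07 under stress. Control libraries 1 and 3 thus had the lowest complexity of the 6, and control library 2 fell within the range of the stress libraries on both measures. Many values below are given also against control library 2 alone, a fit with 1 control library that takes its spread from the stress libraries.

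**Figure D1:**
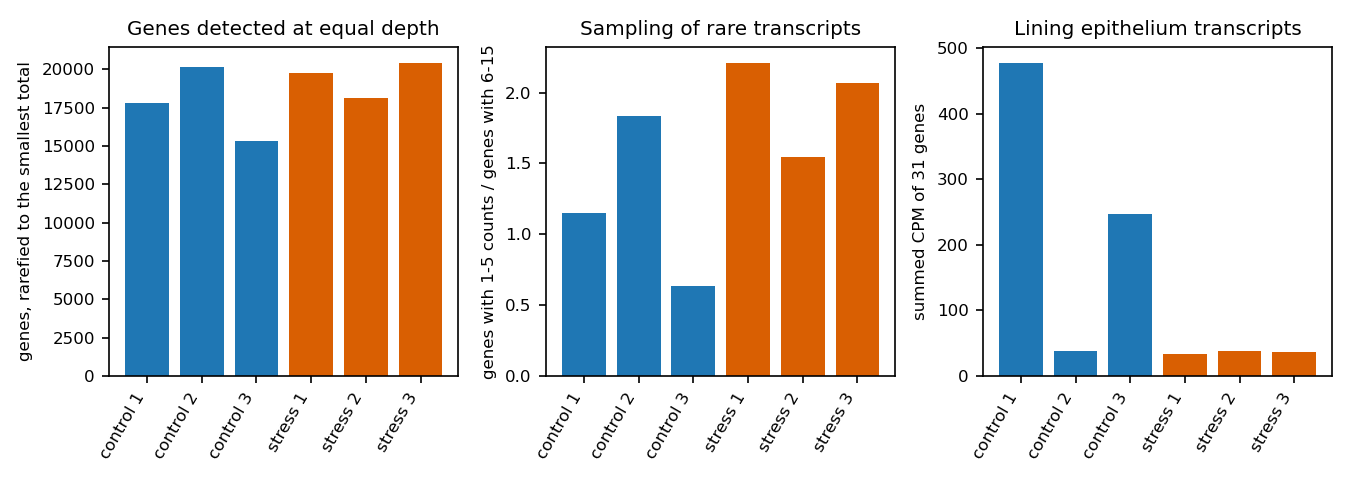
The 3 bar plots show, for each of the 6 libraries, the genes detected at equal depth, the ratio of genes with 1 to 5 counts to genes with 6 to 15 counts, and the summed CPM of 31 lining epithelium genes. Control libraries 1 and 3 have the lowest ratios (1.15 and 0.637) and the highest epithelial sums (478 and 247 CPM).

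The biological coefficient of variation, the spread between libraries beyond counting noise, was 0.553 to 0.557 for pairs of control libraries and 0.355 to 0.440 for pairs of stress libraries. Control library 2 was closer to stress library 1 (0.275) and stress library 3 (0.326) than to either other control library. For the 6 libraries in the fit the common value was 0.470.

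**Figure D2:**
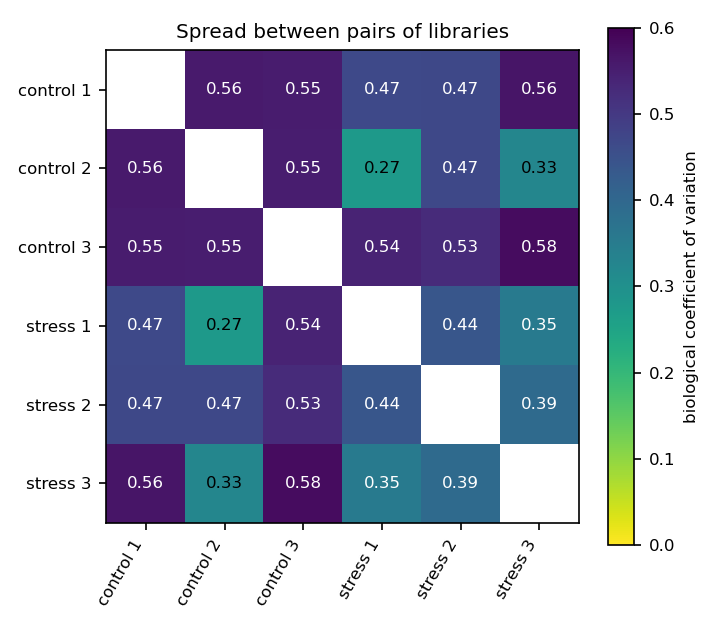
The heat map gives the biological coefficient of variation for each pair of the 6 libraries, with darker cells for wider spread. The palest cells pair control library 2 with stress libraries 1 and 3 (0.27 and 0.33), and pairs of control libraries sit at 0.55 to 0.56.

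Adipocyte identity was clear in every library. Adipoq, encoding adiponectin, measured 6074, 1636 and 4312 CPM in control libraries 1, 2 and 3 and 2786, 3184 and 1207 CPM in stress libraries 1, 2 and 3. On the scale of all 14 high-fat libraries it was at least 1374 CPM in each adipocyte library and at most 46.1 CPM in each preadipocyte library. Plin1, the droplet coat protein perilipin, measured 1929, 1110.0 and 2486 CPM in controls and 1676, 3049 and 1306 CPM under stress, and Pparg, the master factor of adipogenesis, averaged 231 ± 67.5 CPM (SD, n = 3) and 231 ± 46.4 CPM (SD, n = 3). Neither separated the groups. Of the 20 mature adipocyte markers, 12 had negative log2 fold changes and the median was -0.19, but against control library 2 alone 19 of 20 were positive with a median of 0.57. In bulk RNA, more cells of a type and more RNA per cell cannot be told apart.

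Other cell types were present and varied between libraries of the same group. The macrophage receptor gene Adgre1 measured 65.7, 517 and 206 CPM in controls and 353, 87.7 and 208 CPM under stress. Ptprc, which encodes the pan-leukocyte marker CD45, measured 28.5, 155 and 41.3 CPM and then 103, 32.2 and 84.9 CPM. The mean log2(CPM + 1) over 20 macrophage genes was highest in control library 2 (8.64) and lowest in stress library 2 (6.50), and the list median was -0.37 in the 6 libraries, -1.09 against control library 2 alone and 0.22 without it. Cell cycle genes were also highest there: the mean over 25 cell cycle genes was 4.76 in control library 2 and 4.602 in stress library 1, against 2.02 to 3.35 elsewhere. Pdgfra, which marks adipocyte progenitors, measured 8.61, 38.6 and 19.98 CPM in controls and 17.4, 12.5 and 22.7 CPM under stress. For none of these 3 genes did the groups separate, and macrophage and cell cycle levels overlapped too.

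Genes of heat production leaned to the stress side across the tested list, though none was called. Of the 14 thermogenic genes listed, 12 were tested and all 12 had a positive log2 fold change (49.2% of all genes did), 8 of them at an unadjusted p under 0.05 (0.96% of all genes on that side). The stress libraries lay wholly above the controls for 4 of the 12 (3.58% of all genes). The list median was 1.40, beside -0.01 for all genes tested. Zic1 and Tbx1, the untested members, had at most 9 counts in any library. The filter asks for a minimum level in at least 3 libraries. Control library 3 was under it with 6 counts of Ucp1, 3 of Ppargc1a and none of Elovl3. These members therefore needed the stress libraries, where they are high, to be tested, and others may have too. The counts over the list are thus a description and no support for a stress effect.

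The promoters of Ucp1, Dio2 and Ppargc1a show where the cyclic AMP letters stand. They are printed because these members' groups did not overlap; Ebf2, the remaining such member, has no entry in the table. Each sequence is the 250 bases before the start in RefSeq's table for GRCm38.p6, read 5′ to 3′ on the gene's strand, with TGACG or its reverse complement CGTCA in capitals.
Ucp1: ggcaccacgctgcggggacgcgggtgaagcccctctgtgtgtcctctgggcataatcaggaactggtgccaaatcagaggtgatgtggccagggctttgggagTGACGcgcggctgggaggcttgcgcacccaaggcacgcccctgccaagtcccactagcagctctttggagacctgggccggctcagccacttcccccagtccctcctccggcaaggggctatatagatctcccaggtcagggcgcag
Dio2: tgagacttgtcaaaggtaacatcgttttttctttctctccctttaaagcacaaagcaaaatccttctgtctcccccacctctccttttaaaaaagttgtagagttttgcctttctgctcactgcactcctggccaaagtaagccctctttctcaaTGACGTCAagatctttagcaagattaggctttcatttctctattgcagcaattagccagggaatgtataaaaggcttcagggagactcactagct
Ppargc1a: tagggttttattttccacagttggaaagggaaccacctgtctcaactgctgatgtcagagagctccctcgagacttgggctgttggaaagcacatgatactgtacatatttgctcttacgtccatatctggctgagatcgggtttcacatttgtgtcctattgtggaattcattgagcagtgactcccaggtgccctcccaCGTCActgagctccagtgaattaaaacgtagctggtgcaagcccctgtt
These windows lie at chr8:83290098-83290347 on the plus strand for Ucp1 and chr12:90739039-90739288 on the minus strand for Dio2. That of Ppargc1a lies at chr5:51567726-51567975 on the minus strand. Dio2 as counted spans 90724552 to 90738438, so its window lies upstream of the counted gene without adjoining it. Distances below are from RefSeq's start. The first base of the 5-letter match stands 147 bases before the start in Ucp1 and 49 in Ppargc1a. Of these, Dio2 alone holds the full TGACGTCA, read as overlapping matches on both strands at 95 and 92 bases. Of the 12 tested thermogenic genes, 9 were matched in the table, and 4 of these held the 5 letters: the genes printed here and Cited1, in 1 of its 3 promoters. The other 5, among them Cox8b and Cox7a1, held none. Among the 32851 promoters of the table, 17.8% hold TGACG on either strand within the same 250 bases and 1.55% hold TGACGTCA. These shares count promoters, while the 4 of 9 counts genes with a match in any of their promoters. A match describes letters only.

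Ucp1 (ENSMUSG00000031710, chromosome 8, 83290352 to 83298452 on GRCm38), the uncoupling protein that turns the proton gradient into heat, measured 4.68, 40.9 and 0.461 CPM in control libraries 1, 2 and 3. Under stress it measured 116, 256 and 203 CPM. Every stress library lay above every control library, and the controls spanned the wider range on a log scale. The fitted difference was 3.64 ± 1.11 on the log2 scale, 12.4-fold (unadjusted p = 0.00792). It was 2.23 against control library 2 alone and 6.16 without that library. Per length, in the authors' FPKM, Ucp1 averaged 9.79 in controls and 128 under stress, beside 442 and 473 for Plin1.

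Dio2, the deiodinase that makes active thyroid hormone inside the cell, measured 1.29, 3.65 and 0.999 CPM in controls and 5.28, 22.2 and 12.8 CPM under stress. Its groups did not overlap, and its difference was 2.74 ± 0.68 (unadjusted p = 0.00217), or 1.88 against control library 2 alone. It was among the 2 genes that DESeq2 called as higher (adjusted p = 0.0279). Ppargc1a, the coactivator that drives mitochondrial biogenesis, measured 2.74, 2.77 and 0.231 CPM and then 5.63, 8.29 and 5.38 CPM, a difference of 1.73 ± 0.76. Ebf2, a factor that commits cells to the brown and beige fate, measured 4.63, 13.8 and 5.30 CPM and then 14.3, 20.8 and 19.3 CPM. That gap of 1.19 ± 0.47 shrank to 0.40 against control library 2 alone.

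The remaining members at an unadjusted p under 0.05 overlapped between groups. Cidea, a droplet protein of brown and beige fat, measured 6.82, 27.3 and 4.07 CPM in controls and 27.8, 82.4 and 22.5 CPM under stress, so that stress library 3 fell below control library 2. Elovl3, an elongase abundant in brown fat, measured 0.547, 14.98 and 0 CPM and then 11.3, 54.1 and 59.0 CPM. Cox7a1 and Cox8b, respiratory chain subunits of brown fat and muscle, differed by 1.44 ± 0.56 and 1.35 ± 0.53. Prdm16, a brown fat determinant, and Otop1 and Cited1 were at 0.44, 0.46 and 1.04 in the 6 libraries, and below 0 against control library 2 (-0.20, -0.03 and -0.14). Tmem26, often used as a beige marker, was near 0 at 0.03. Counted against control library 2 alone, 8 of the 12 members were positive and the list median was 0.89, while without control library 2 the median was 2.30.

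**Figure D3:**
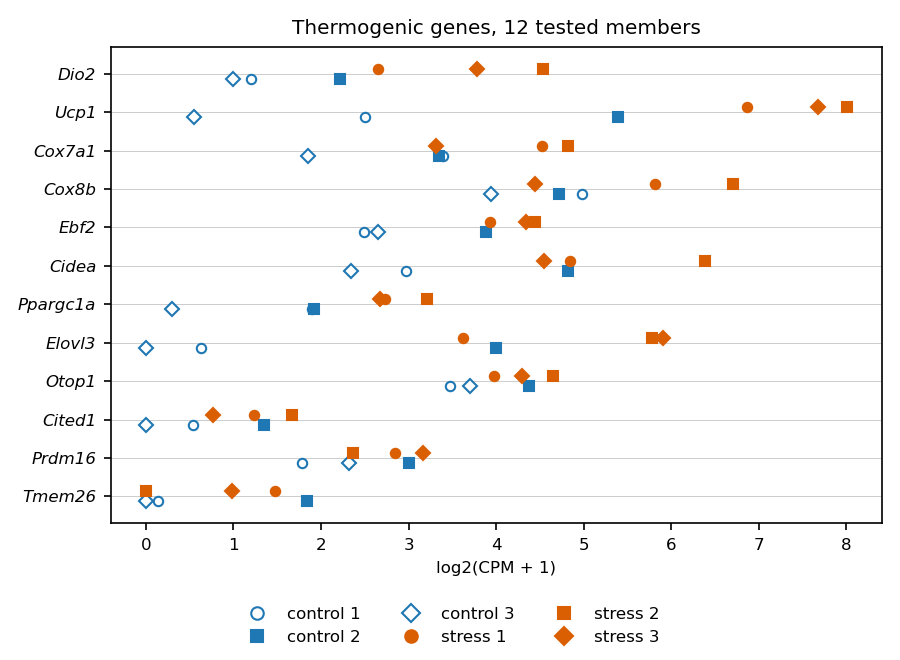
Each point is 1 library's log2(CPM + 1) for 1 of the 12 tested thermogenic genes, blue for control and orange for stress, with open symbols for control libraries 1 and 3. For Dio2, Ucp1, Ebf2 and Ppargc1a all orange points lie to the right of all blue ones, and control library 2 lies nearest to them.

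The preadipocyte libraries did not show the same order. Ucp1 ran from 0.882 to 2.45 CPM in control and from 0.524 to 2.36 CPM in stress preadipocytes. The log2 fold change there was -0.40 ± 0.87 for Ucp1, -1.81 ± 0.80 for Dio2 and -2.65 ± 1.03 for Ppargc1a. Dio2 measured 6.00, 2.27, 6.11 and 1.05 CPM in control preadipocyte libraries 1 to 4, and 0.0873 to 2.42 CPM under stress. Ppargc1a measured 7.90, 1.16, 9.74 and 0.833 CPM there, and 0 to 1.90 CPM under stress. For both genes control libraries 1 and 3 stood highest, and control libraries 2 and 4 lay within the stress range. The part of libraries 1 and 3 in these fold changes was not tested. The difference of the stress effect between fractions was 4.06 for Ucp1 (unadjusted p = 0.00629) and 4.58 for Dio2 (unadjusted p = 0.00207), and neither passed edgeR's test after adjustment (adjusted p = 0.717 for both). Across 18194 genes tested for such a difference, 0 were called (0%), and 1223 (6.72%) had an unadjusted p under 0.05. DESeq2 called 24, among them Dio2 (adjusted p = 0.0404) and not Ucp1 (adjusted p = 0.274). Control preadipocyte libraries 1 and 3 were nearly the same profile, with a coefficient of variation of 0.0427 against 0.204 to 0.514 in the other 11 pairs within the preadipocyte groups. With that pair summed into 1 library, edgeR gave a Dio2 difference of 4.27 and again called 0 genes. The preadipocyte log2 fold changes were then -1.52 ± 0.86 for Dio2 and -2.22 ± 1.09 for Ppargc1a. DESeq2 was not run with the pair summed, so its 24 calls were not checked in this way.

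Several genes that handle fatty acids or glycerol, or carry metabolites, had values as follows. Fabp3, a fatty acid carrier of oxidative muscle and brown fat, measured 3.68, 9.39 and 1.31 CPM in controls and 14.4, 42.8 and 21.2 CPM under stress, with no overlap and a difference of 2.43 ± 0.67. Slc25a34, a mitochondrial carrier, measured 1.19, 4.28 and 2.15 CPM and then 7.94, 16.4 and 8.43 CPM. Gpam, the mitochondrial acyltransferase that starts triglyceride synthesis, measured 61.6, 103 and 123 CPM and then 184, 210.3 and 239 CPM. Its difference of 1.14 ± 0.35 was nearly the same against control library 2 alone (1.05), since low and high control libraries lay on either side of that library. Gk, the kinase that lets a fat cell reuse glycerol, measured 21.4, 37.8 and 12.4 CPM and then 29.1, 135 and 138 CPM, where stress library 1 lay among the controls. Acsl1, which activates fatty acids, measured 1677, 1861 and 1419 CPM and then 1778, 6033 and 2966 CPM, again with stress library 1 in the control range.

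The lists of these pathways had small positive medians. Of 24 genes of triglyceride synthesis and fatty acid uptake, 18 had positive log2 fold changes (49.2% of all genes), 3 at an unadjusted p under 0.05 (0.96% of all genes), with a median of 0.37. Fatty acid oxidation had 14 of 18 positive (49.2% of all genes) with a median of 0.48. Of these, 2 lay wholly higher under stress (3.58% of all genes), Ppargc1a and the peroxisomal enzyme gene Ehhadh. In fatty acid synthesis 11 of 18 were positive with a median of 0.28. Acaca, the cytosolic acetyl-CoA carboxylase, measured 244, 342 and 218 CPM in controls and 399.6, 769.6 and 452 CPM under stress, without overlap. Elovl6, which lengthens palmitate, was also separated at 0.77 ± 0.34. Acacb, the mitochondrial carboxylase, overlapped at 1.63 ± 0.59. Scd1, the desaturase and among the 3 most abundant genes, overlapped too at -0.29 ± 0.39. Nuclear genes of oxidative phosphorylation had a median of 0.15 in the 6 libraries, 0.54 against control library 2 alone with 30 of 30 positive, and -0.01 without that library.

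Lipolysis, the release of stored fat, had 15 of 22 genes positive and a median of 0.25. Adrb1, a beta-adrenergic receptor of low abundance, measured 0.995, 1.17 and 0.845 CPM in controls and 1.79, 3.84 and 3.71 CPM under stress. Adrb3, the main beta receptor of rodent fat cells, overlapped at 0.08 ± 0.63. Adora1, an adenosine receptor that restrains lipolysis, measured 119.7, 83.9 and 111 CPM and then 82.2, 55.8 and 31.6 CPM, all stress libraries lying lower. Pde3b, which breaks down cyclic AMP under insulin, lay higher in all stress libraries at 0.68 ± 0.36. The lipases Pnpla2 and Lipe overlapped at -0.33 ± 0.46 and -0.17 ± 0.48. Clstn3, which has a fat-specific product at the lipid droplet, led the neurotrophic and sympathetic list at 1.52 ± 0.54, with stress library 1 (42.9 CPM) inside the control range of 36.0 to 60.5 CPM.

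The 12 genes with the smallest p on the higher side held 9 whose groups did not overlap (3.58% of all genes). They were chosen by p in these same libraries, which favours separated genes, so this count is a description. Prlr, the prolactin receptor, measured 9.15, 14.98 and 9.76 CPM in controls and 24.5, 33.4 and 30.4 CPM under stress, a tight pair of ranges that differed by 1.38 ± 0.35 (unadjusted p = 0.00262). Epm2aip1, which encodes a partner of the glycogen phosphatase laforin, measured 9.40, 15.4 and 9.22 CPM and then 21.2, 26.9 and 31.9 CPM. Vangl1, a planar polarity gene, differed by 1.26 ± 0.41. Trib2, a pseudokinase, measured 1.99, 2.77 and 2.23 CPM and then 6.54, 4.56 and 23.7 CPM. Alpl, tissue-nonspecific alkaline phosphatase, overlapped because stress library 1 held 15.4 CPM against 26.4 CPM in control library 2. All 12 kept a positive sign against control library 2 alone, 9 of them at 2-fold or more. That comparison reuses libraries by which the genes were chosen. Of the 44 separated genes at 2-fold or more, 17 kept a 2-fold difference in that comparison. On the lower side 39 of the 86 kept it. All 12 genes with the smallest p there kept their sign, 7 of them at 2-fold or more.

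On the lower side, 3 of the 4 smallest p-values among named genes belonged to genes of a lining epithelium. Aqp3, a water and glycerol channel of epithelia, measured 11.1, 1.12 and 5.92 CPM in controls and had no count in any stress library. Read against a floor of 3 counts per library, it was at least 42.1-fold lower under stress than the control mean, and at least 7.80-fold lower than control library 2. Upk1a, a uroplakin of bladder lining, measured 59.7, 0.924 and 25.1 CPM and then 0.698, 0.612 and 0.132 CPM, so that control library 2 lay close to the stress libraries. Sprr1a, a cornified envelope protein, measured 37.8, 1.02 and 13.4 CPM and then 0.785, 1.11 and 0.618 CPM. Tmprss2, an epithelial serine protease, kept its gap against control library 2 alone (-3.30), with 9.80, 4.13 and 4.84 CPM in controls and 0.131, 0.779 and 0.353 CPM under stress.

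A list of 31 urothelial and epithelial genes, put together after these values were seen, followed the same libraries. Its summed level was 478, 38.4 and 247 CPM by library total in control libraries 1, 2 and 3, and 33.6, 38.5 and 35.9 CPM in the stress libraries. Upk3b, also in the mesothelial list, gave 271 of 750 counts in control library 2. In stress libraries 1, 2 and 3 it gave 339 of 737, 279 of 741 and 294 of 704. Control library 2 had 3 of the 31 genes at 0, against 10, 10 and 13 in the stress libraries. The near-equal sums of these 4 libraries therefore do not show equal levels of the other members. Of the 31 genes, 29 were highest in control library 1 and 1 in control library 3, and 5 were at 0 in every stress library. The filter was passed by 16 genes, and all 16 had negative log2 fold changes. Their median of -3.63 became -0.28 against control library 2 alone. Among preadipocytes the nearly identical control libraries 1 and 3 held sums of 3908 and 3887 CPM, and the other 6 preadipocyte libraries of the high-fat diet 50.0 to 523 CPM. In control preadipocyte library 2, at 523 CPM, Upk3b gave 5568 of 11121 counts. The epithelial genes took 10 of DESeq2's 16 calls, 18 of the 51 without a filter, and 8 of the 9 (0.0598% of genes tested) that edgeR made when control library 2 was left out. Krt18, Krt8, Upk1b and Krt19, the 4 mesothelial list members at an unadjusted p under 0.05, stand in both lists. The part of this tissue in the other genes that were lower under stress was not tested.

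Igfbp2, a secreted binder of insulin-like growth factors and no member of that list, had the same order of libraries, with 15.1, 0.778 and 9.37 CPM in controls and 0.349, 0.445 and 0.132 CPM under stress. Ctse, cathepsin E and a list member, measured 14.1, 1.07 and 6.84 CPM and then 1.05, 0.668 and 0.309 CPM. For both, control library 2 stood much nearer to the stress libraries than to the other controls.

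The other genes among the 12 smallest p-values on the lower side are given one by one. Hbegf, an activating ligand of the EGF receptor, measured 33.1, 23.2 and 36.8 CPM in controls and 8.68, 12.7 and 10.8 CPM under stress. The groups did not overlap, and the difference of -1.53 ± 0.35 (unadjusted p = 0.00125) was -1.11 against control library 2 alone. Errfi1, a feedback inhibitor of the EGF receptor that glucocorticoids also induce, measured 250.03, 128 and 282 CPM and then 85.0, 89.1 and 61.7 CPM. Chka, the first enzyme of phosphatidylcholine synthesis, measured 56.9, 46.1 and 66.8 CPM and then 19.1, 27.8 and 17.1 CPM, a difference of -1.41 ± 0.33. In preadipocytes Hbegf had a log2 fold change of -1.26 ± 0.42, which was -1.002 with the near-identical control pair summed. It was highest there in control preadipocyte libraries 1 and 3, at 112 and 108 CPM, against 49.1 and 22.2 CPM in control libraries 2 and 4. Libraries 1 and 3 also held the highest epithelial sums, whose part in the values of Hbegf was not tested. In preadipocytes the log2 fold change of Chka was -0.09 ± 0.25.

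Tnc, the matricellular protein tenascin C, measured 22.6, 25.6 and 34.9 CPM in controls and 8.77, 5.68 and 13.7 CPM under stress, and its difference of -1.56 ± 0.41 stayed at -1.44 against control library 2 alone. Smoc2, a calcium-binding matrix protein, measured 23.8, 26.6 and 56.6 CPM and then 15.0039, 11.3 and 9.40 CPM. Vasn, a membrane protein that traps TGF-beta, measured 70.8, 32.0 and 127 CPM and then 25.8, 19.9 and 20.7 CPM. Of 18 progenitor and fibroblast genes 13 were negative with a median of -0.46, and Mfap5, Dcn and Clec3b lay wholly lower under stress (3.3% of all genes did). Among the 26 genes of the extracellular matrix the median was -0.15, with 1 separated, the collagen gene Col6a2 at -0.75 ± 0.38.

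**Figure D4:**
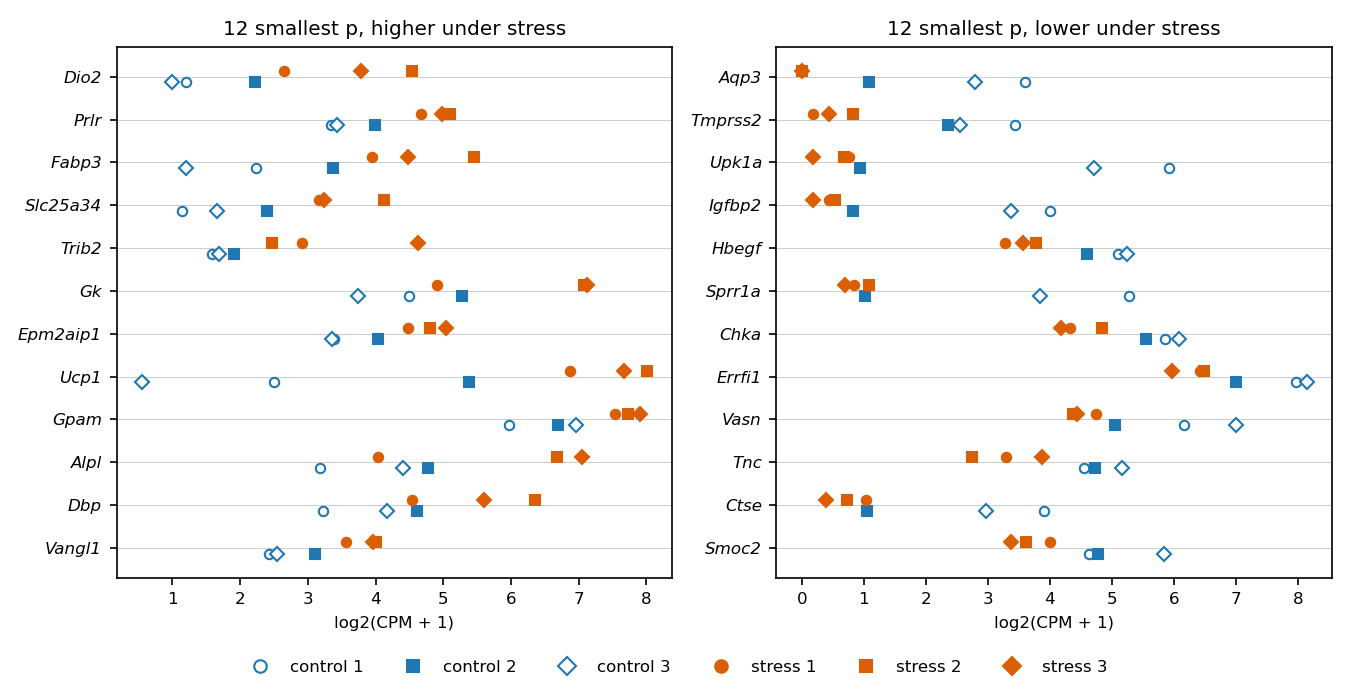
The 2 panels show log2(CPM + 1) per library for the 12 genes with the smallest unadjusted p on each side, blue for control and orange for stress, with open symbols for control libraries 1 and 3. Groups are apart for 9 genes on the left and 11 on the right, in genes chosen by p in these same libraries. For Upk1a, Igfbp2, Sprr1a and Ctse control library 2 sits beside the stress libraries.

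Hormones and acute phase genes of the fat cell tended to lower values. Hp, haptoglobin, measured 7053, 3299 and 3902 CPM in controls and 2351, 1243 and 1756 CPM under stress, without overlap (-1.41 ± 0.42, unadjusted p = 0.00641). Lep, the leptin gene, measured 4823, 1584 and 1863 CPM and then 1664, 508 and 1245 CPM, so that stress library 1 lay above control library 2. Sfrp5, a secreted Wnt antagonist, measured 604, 163 and 598 CPM and then 236, 24.7 and 50.4 CPM. Of 17 adipokine and hormone genes 12 were negative with a median of -0.28, and that median was 0.42 against control library 2 alone. Inflammatory cytokines and acute phase genes had a median of -0.41, which was -0.37 against control library 2. Tlr2, a receptor for bacterial lipoproteins, was the other separated member, with 43.3, 123 and 86.1 CPM and then 24.9, 41.0 and 40.0 CPM. Tnf overlapped at -0.93 ± 0.42. Macrophage genes were also highest in control library 2, and their part in the values of Tlr2 and Tnf was not tested.

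Early life stress is known to act on the glucocorticoid axis of rodents. Nr3c1, the glucocorticoid receptor, measured 58.3, 106 and 65.2 CPM in controls and 108, 118 and 157 CPM under stress. The groups did not overlap, though control library 2 lay just under stress library 1, and the difference was 0.74 ± 0.35 (unadjusted p = 0.0590), or 0.27 against control library 2 alone. Nr3c2, the mineralocorticoid receptor, overlapped at 0.18 ± 0.46. Among 22 tested genes of corticosteroid receptors, activation and targets, 14 were negative, 4 of them at an unadjusted p under 0.05 (1.92% of all genes on that side), and the median was -0.27. These 4 were Errfi1, Mt1, Sult1a1 and Hsd11b1, the last being the enzyme that regenerates active glucocorticoid in fat. Mt1, a metallothionein, measured 591, 387 and 479 CPM and then 248, 352 and 180.0 CPM. Hsd11b1 measured 28.8, 13.4 and 25.7 CPM and then 15.3, 10.3 and 10.3 CPM, and its difference of -0.92 was -0.16 against control library 2 alone.

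Other response programmes split. Endoplasmic reticulum and integrated stress genes were positive in 18 of 22 with a median of 0.45, led by the chaperone gene Hsp90b1, which measured 259.8, 328 and 126 CPM in controls and 303, 513 and 737 CPM under stress. Chac1, a target of ATF4, went against the list at -1.38 ± 0.58. Among the immediate early genes Nr4a1 lay lower in all stress libraries, with 365, 321 and 477 CPM and then 212, 218 and 213 CPM. Klf2, a flow-responsive factor, lay higher in all stress libraries, with 35.6, 84.4 and 36.3 CPM and then 106, 115 and 136 CPM. Interferon response genes had 17 of 24 positive with a median of 0.38 and no separated member. Cytosolic ribosomal protein genes were negative in 26 of 28 with a median of -0.25, and positive in 26 of 28 against control library 2 alone. Clock output genes differed in direction: Dbp differed by 1.62 ± 0.52, Bhlhe41 by 1.24 ± 0.44 and Ciart by -1.64 ± 0.63, and for the last pair the groups did not overlap. The labels give no time of day for collection.

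**Figure D5:**
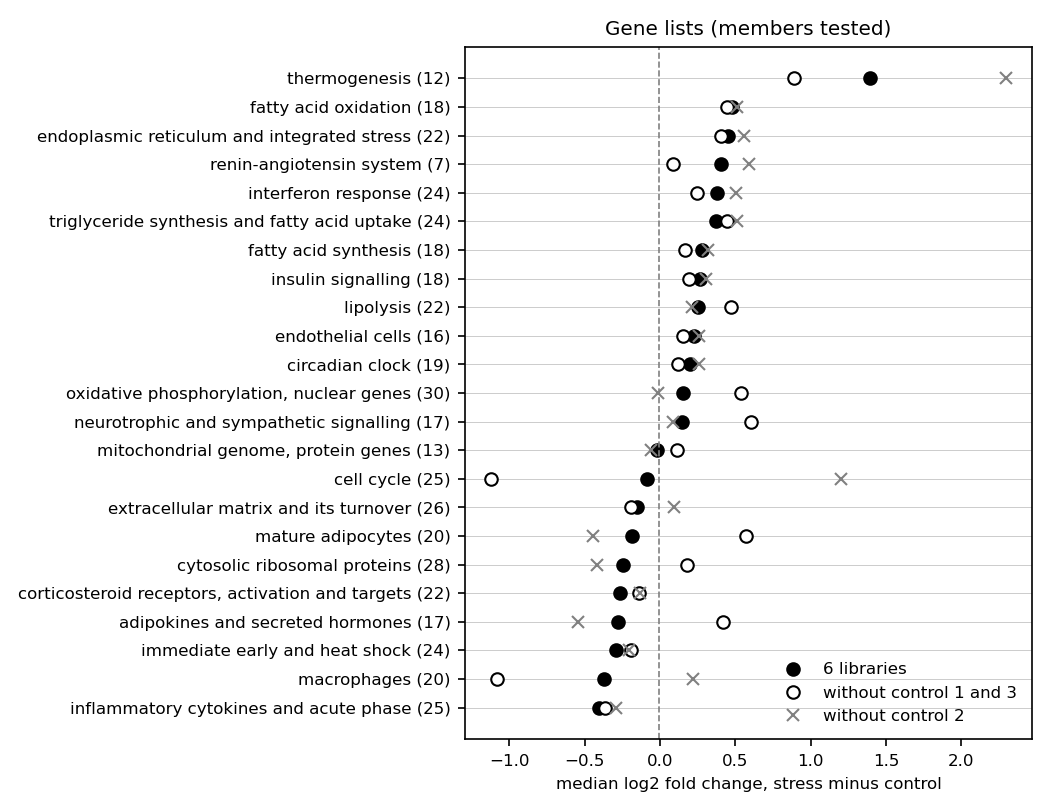
Points give the median log2 fold change, stress minus control, of 20 process lists and 3 cell type lists, with the number of members tested in brackets. Filled points use 6 libraries, open points leave out control libraries 1 and 3, crosses leave out control library 2, and the dashed line is the median of all genes. Thermogenesis stays on the right in all 3 (1.40, 0.89 and 2.30), as do other lists such as fatty acid oxidation and lipolysis. Medians of cell cycle, mature adipocyte, macrophage, adipokine, oxidative phosphorylation, mitochondrial genome, extracellular matrix and ribosomal protein genes change sign.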

How the data were processed

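The authors deposited raw read counts and FPKM values (fragments per length and depth) per gene, per the file headers. STAR 2.6.1d, DESeq2 1.20.0, edgeR 3.24.3 and the builds mm10 and GRCm38 are named, per the submitters' processing notes. No source used here names how reads were counted, the strand setting or the annotation, so reads of overlapping or near-identical genes (Mt1 and Mt2, Krt genes, haemoglobins) may be shared. Of 54532 genes in the table, 14485 passed edgeR's filterByExpr. The 6 libraries were tested with edgeR 4.0.16 in R 4.3.3 (TMM, robust quasi-likelihood fit, Benjamini-Hochberg at 0.05). The difference between fractions was a contrast over 14 libraries. Alternatives were DESeq2 1.42.0, limma 3.58.1 on voom values and on log2(FPKM + 1) or log2(FPKM + 0.1), other scalings and filters, a replicate block, terms for complexity, and leaving libraries out. DESeq2 adjusted p-values given as NA stayed NA. The scripts were tested on simulated data with a narrower spread than these libraries have, which checks the code and does not measure power here.

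Named genes were the 12 with the smallest p in each direction (at least 5 CPM in the higher group, no predicted gene symbols), the member with the smallest p of each list, 9 checks of identity and receptors, and the 3 most abundant. Other list members were named after their values were seen. The comparison, the 32 gene lists and the rule were chosen with earlier results of these data known, and 2 further lists (lining epithelium, striated muscle) were added after the values were seen. The floor of 3 counts covers counting error only.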

Additional observations from a re-analysis of the deposited data

Results flagged for a closer look

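Trib2, a pseudokinase gene, lay on opposite sides in the 2 fractions. All stress libraries were above all control libraries in mature adipocytes, with a log2 fold change of 2.31 ± 0.65. In preadipocytes all 4 stress libraries, at 3.88, 2.51, 4.15 and 3.62 CPM, were below the 4 control libraries, at 4.65, 6.78, 7.11 and 4.69 CPM (scaled over 14 libraries), with a log2 fold change of -0.71 ± 0.44. The difference of log2 fold changes, adipocytes minus preadipocytes, was 3.05 (unadjusted p = 0.000484). It was not called by edgeR (adjusted p = 0.717), while DESeq2 gave 2.97 (adjusted p = 0.0316). Over the 20 other settings it ran from 1.99 to 3.43 with adjusted p from 0.0316 to 0.994, and it was 3.03 with the near-identical control preadipocyte libraries 1 and 3 summed. Stress adipocyte library 3 held 23.7 CPM, against 6.54 and 4.56 CPM in the other stress libraries.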

How the results depend on the processing

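Calls of the stress comparison were 0 by edgeR with all 6 libraries and a filter, under RLE or TMMwsp scaling, a filter at 5 CPM, the spread of 14 libraries, and by limma. DESeq2 called 16 (2 higher, 14 lower; 807 at an unadjusted p under 0.05) and edgeR without a filter 51 (14 higher, 37 lower). Leaving out 1 library gave 0 to 9 calls, the 9 without control library 2. For the difference between fractions DESeq2 called 24, and leaving out 1 library gave 0 to 3 calls, the 3 again without control library 2. Same-numbered control and stress libraries did not deviate together (correlations -0.51 to -0.04 over 11257 genes), and those with different numbers ran from -0.39 to 0.45. With 3 libraries per group this cannot tell whether the numbers pair animals or batches, and the labels do not say. With a replicate block both tests called 0 genes, with 300 genes against 417 at an unadjusted p under 0.05 for the stress comparison.

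Of the 64 named genes, 49 kept their sign in all 19 alternatives and 17 were called in at least 1. With a term for control libraries 1 and 3, or without them, log2 fold changes that changed sign were 0.70 and 0.71 for Elane, 1.41 and 1.42 for Cnn1, 0.52 and 0.54 for Krt18, 0.10 and 0.11 for Rps14, 0.55 and 0.55 for Adipoq, 0.59 and 0.59 for Pparg, -0.13 and -0.12 for Nr3c2, 0.019 and 0.025 for mt-Co1, 0.20 and 0.21 for Scd1, and 0.96 and 0.96 for Car3. With the complexity covariate they were 0.50 for Elane, 0.049 for mt-Nd6, 0.13 for Rps14, 0.45 for Pparg, -0.14 for Nr3c2, 0.32 for mt-Co1 and 0.26 for Car3. Voom weights gave -0.090 for Plin1, 0.38 for Ptprc and 0.033 for Adgre1. Ptprc was 0.11 and 0.16 on log2(FPKM + 1) and log2(FPKM + 0.1), and 0.34 with the replicate block. Pparg was 0.028 without a filter, 0.022 with the spread of 14 libraries and 0.021 with the block. Leaving out 1 library gave ranges of -0.30 to 0.41 for Plin1, -0.23 to 0.15 for Pparg, -0.74 to 0.29 for Pdgfra, -0.42 to 1.07 for Ptprc, -0.85 to 0.67 for Adgre1, -0.10 to 0.46 for Nr3c2, -0.47 to 0.21 for mt-Co1 and -0.70 to 0.29 for Car3. The cause was not tested. With 4 residual degrees of freedom and a coefficient of variation of 0.470, small differences are not detectable here.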

Other observations

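Striated muscle transcripts were present at low levels in all 6 adipocyte libraries. Of 19 tested muscle genes, in a list made after the values were seen, 7 lay wholly lower in the stress libraries (3.3% of all genes). The list median was -0.77 in the 6 libraries and -0.09 against control library 2 alone, where 8 of 19 were positive. The summed level was 320, 157 and 321 CPM in control libraries 1, 2 and 3 and 233, 203 and 233 CPM in the stress libraries, so that control library 2 was the lowest. Pvalb, parvalbumin of fast muscle fibres, measured 11.1, 10.8 and 7.30 CPM in control libraries 1, 2 and 3 and 5.80, 2.06 and 3.35 CPM in the stress libraries, a difference of -1.38 ± 0.50. Myh1, a fast myosin heavy chain, measured 15.5, 13.4 and 17.4 CPM and then 10.7, 5.51 and 1.90 CPM. For these 2 genes, unlike the list, control library 2 lay above every stress library.

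Star, which carries cholesterol into mitochondria for steroid synthesis, measured 0.846, 12.5 and 6.22 CPM in controls and 4.75, 38.1 and 113 CPM under stress. It was the single tested gene of 9 markers of the ovary and reproductive tract. Red blood cell genes were higher in stress library 1: Hbb-bt, a beta globin gene, measured 67.3 CPM there and 13.8 to 27.8 CPM in the other 5 libraries. Of 13 tested B cell genes 8 were positive with a median of 0.23. Pax5, a B cell factor and the member with the smallest p, measured 0.149, 0.195 and 0.615 CPM in controls and 0.567, 1.28 and 2.87 CPM under stress, while the immunoglobulin gene Ighm was at -0.77.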
